A study of Mus musculus with 27 samples.

Results

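The pieces described here are the 14 heart samples titled remote, meaning muscle taken away from an infarct, divided by how much of one atrial transcript they held. The split was chosen by the measured level of Myl7, the regulatory myosin light chain of atrial muscle: 6 of the 14 libraries had 50 CPM or more, and 8 had less. CPM is a gene's count scaled to the total count of its library, per 1e6 counts. The series holds 27 bulk RNA-seq libraries from 14 mice, the other 13 being infarct tissue from 13 of the same hearts. All mice were male, of strain C57BL/6J and genotype ApoE-/-, ate a western type diet from the start and were killed 7 days after induced myocardial infarction (MI). After 4 weeks of that diet, mice of the chronic kidney disease (CKD) group received adenine in it, at 0.3% for 10 days and then at 0.15% for 11 days, of which 4 came before and 7 after the MI. Control mice ate the western type diet without adenine throughout. The remote pieces came from 6 control and 8 CKD mice. No label gives the animals' age, how a piece was cut or whether atrium was included, so the words high and low class below refer only to Myl7.

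Atrial and ventricular muscle cells share most of their contractile proteins but use different myosin light chains. Atrial cells carry Myl7 and Myl4, while ventricular cells carry Myl2 and Myl3. Atrial cells also restrain the calcium pump of the sarcoplasmic reticulum with sarcolipin (Sln), where ventricular cells rely mainly on phospholamban (Pln), and they secrete natriuretic peptides and BMP10. The pacemaker and conduction cells near the atria add channels of the HCN and T-type calcium families.

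The rule gene itself fell into separate ranges. In the high class, Myl7 stood at 311 CPM in CKD mouse 9174, 221 in control 9170, 141 in CKD 9176, 140 in control 9171, 117 in CKD 9172 and 105 in CKD 9173. In the low class it stood at 9.30 CPM in CKD 9178, 1.95 in CKD 9179, 1.16 in CKD 9177 and between 0.112 and 0.767 in CKD 9175 and controls 9180, 9182, 9183 and 9184. The values nearest the threshold were thus 105 CPM inside it and 9.30 CPM outside it, 11.3-fold apart, against a 2.96-fold span within the high class. Thresholds of 25 and 100 CPM give the same classes. These values chose the members and are given without a test, as are all differences between the classes in the same 14 libraries.

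The 250 bases before the annotated start of the rule gene, Myl7, and of Mybphl, Hamp and Myl4 are shown because their transcripts lead the results. They were taken from the RefSeq promoter table, which has no entry for Sln. All are 5′ to 3′ on the gene's strand in build GRCm38.p6, and capitals mark motif matches. Myl7 is at chr11:5898783-5899032 (minus strand), Mybphl at chr3:108364661-108364910 (plus), Hamp at chr7:30944030-30944279 (minus) and Myl4 at chr11:104550413-104550662 (plus).
Myl7: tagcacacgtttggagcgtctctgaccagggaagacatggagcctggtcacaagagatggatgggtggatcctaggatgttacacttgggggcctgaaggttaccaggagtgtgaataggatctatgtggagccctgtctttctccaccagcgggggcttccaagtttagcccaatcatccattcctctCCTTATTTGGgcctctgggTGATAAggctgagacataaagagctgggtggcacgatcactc
Mybphl: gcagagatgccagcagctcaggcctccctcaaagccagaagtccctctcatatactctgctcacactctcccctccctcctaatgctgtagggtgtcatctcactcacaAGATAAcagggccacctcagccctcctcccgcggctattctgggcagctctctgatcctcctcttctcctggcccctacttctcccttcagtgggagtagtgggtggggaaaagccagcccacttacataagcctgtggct
Hamp: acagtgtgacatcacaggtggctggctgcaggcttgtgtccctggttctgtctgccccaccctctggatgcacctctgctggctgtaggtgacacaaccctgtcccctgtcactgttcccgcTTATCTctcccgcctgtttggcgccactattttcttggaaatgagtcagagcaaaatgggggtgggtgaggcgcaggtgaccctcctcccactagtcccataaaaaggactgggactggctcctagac
Myl4: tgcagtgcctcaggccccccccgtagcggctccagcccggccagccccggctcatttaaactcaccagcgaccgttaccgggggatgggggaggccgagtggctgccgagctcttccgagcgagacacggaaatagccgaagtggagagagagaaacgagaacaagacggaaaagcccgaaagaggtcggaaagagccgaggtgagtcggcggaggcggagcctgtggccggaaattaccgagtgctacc

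Both strands were searched for a GATA motif (AGATAA or TGATAA), a T-box half-site (GGTGTG), the CArG box, which serum response factor binds, and a TATA box (TATAAA). The Myl7 window held a CArG box 52 to 61 bases and a GATA match 37 to 42 bases before the start. A GATA match lay 136 to 141 bases before the start of Mybphl and, on the opposite strand, 123 to 128 bases before that of Hamp. The Myl4 window held no match to any of these letters. Of the other genes that separated the classes, Tmem163 had a CArG box, Slc24a2 had a GATA match at each of its 2 annotated starts, a T-box half-site at the first and a TATA box overlapping the GATA match at the second, and Alox8, Capn11 and Cacna2d2 had no match. Of 32851 promoter windows in the table, 16.6% held the GATA motif, 16.3% the T-box half-site, 1.47% the CArG box and 12.4% the TATA box, so a GATA match is common. A match is a run of letters and was not tested as a binding site.

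Some libraries stood apart or went against their labels. Total counts ran from 17928248 to 42566498 in the high class and from 17699794 to 31913428 in the low class, and the share of counts from mitochondrial protein genes from 15.3% to 20.7% and from 12.7% to 20.9%. Apoe, the gene disrupted in every mouse, still gave 11.5 to 21.4 CPM in the remote pieces. For mouse 9179 the title of the remote library names CKD and the treatment label control, and the piece was kept with CKD. In the low class, the remote library of control 9180 held scar transcripts, with Col1a1 (type I collagen) at 4355 CPM against 103 to 954 in the other 7 low pieces. A list of scar matrix genes summed to 12524 CPM there, 2792 CPM in control 9183 and at most 1443 CPM in the other remote pieces. The 6 high pieces came from mice 9170 to 9174 and 9176 and the low ones from 9175 and 9177 to 9184, so class moved with mouse number except for 9175, which lies between high-class 9174 and 9176. The part of mouse number in the class differences was not tested. The labels do not say what the numbers follow.

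A small set of genes differed sharply between the classes. Of 14195 genes that passed the filter on low counts, 11 had CPM ranges that did not overlap and fitted levels at least 2-fold apart, all of them higher in the high class (0.0775% of genes), and none was lower (0%). Among them were Sln, Myl7, Mybphl, Myl4, Hamp, Alox8, Capn11, Tmem163, Cacna2d2 and Slc24a2. Of the 11, 7 belong to the atrial and nodal lists and 4 (Alox8, Capn11, Tmem163 and Slc24a2) to no list. Myl7 is counted in the 11 and in the 7, though the rule fixed its separation in advance. The median log2 fold change over all genes was -0.01. Of 38 atrial and nodal list genes, 35 passed the filter, and genes that passed it only through their level in the high class had to differ. No gene of the other lists, 122 in all, was separated in this way. In bulk tissue, a larger share of atrial cells and more of a transcript per cell cannot be told apart.

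**Figure D1:**
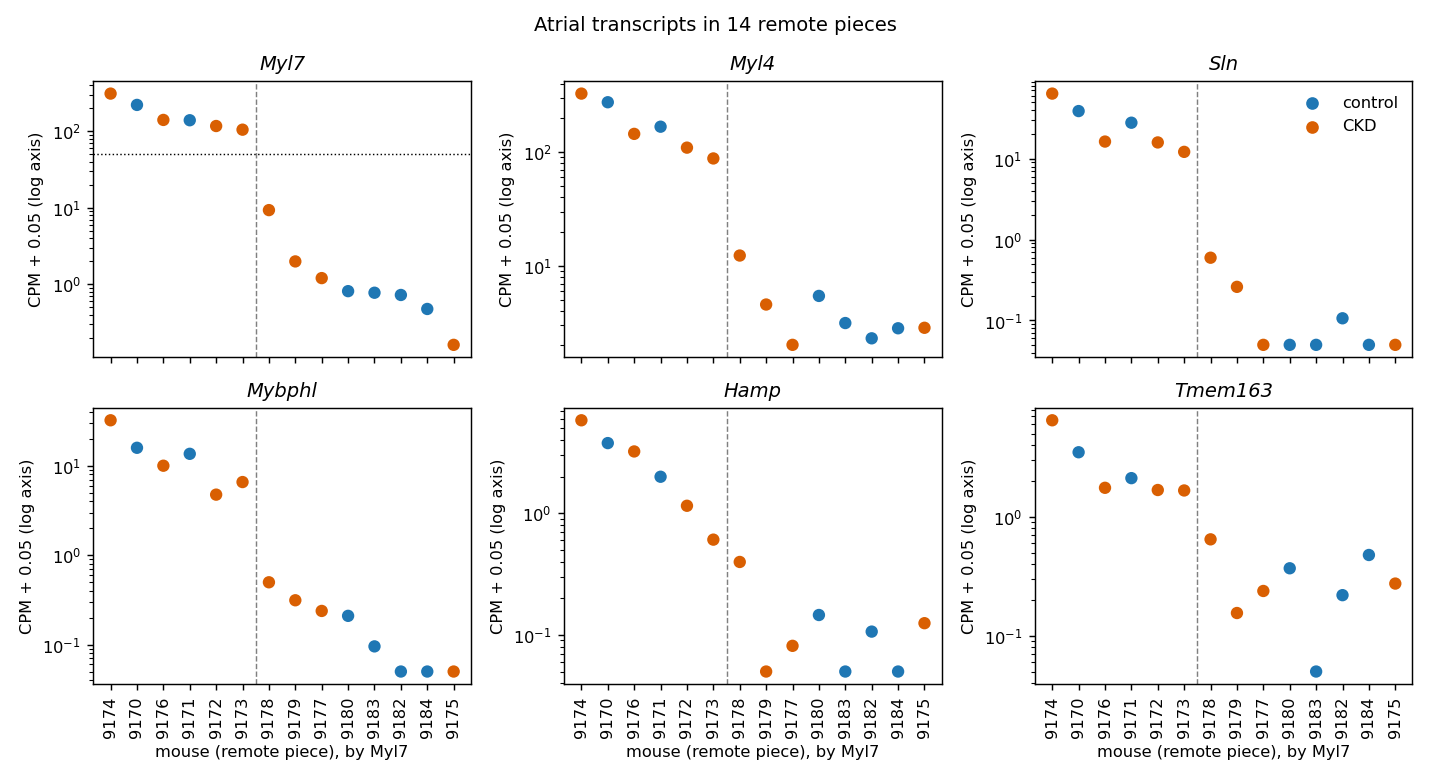
CPM of 6 separated genes in each of the 14 remote pieces, ordered by Myl7, on log axes with 0.05 CPM added; orange points are CKD and blue points control mice. The dotted line marks 50 CPM of Myl7 and the dashed line the class border, and in every panel the 6 pieces left of it lie above the 8 to its right.

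Of the 4 sarcomere and calcium pump genes of atrial muscle, Myl7 is the rule gene and had to be separated. Myl4, Sln and Mybphl were separated as well. The list's median log2 fold change of 6.61 includes Myl7. Myl4, the essential light chain of atrial myosin, stood at 327, 274, 145, 167, 109 and 88.0 CPM in mice 9174, 9170, 9176, 9171, 9172 and 9173. In the low class it ranged from 1.97 to 12.3 CPM with a median of 2.95, the top value being that of CKD 9178, the piece with the most Myl7 among the low ones. The fitted log2 fold change of Myl4 was 5.41 ± 0.46 (SE, n = 6 and 8).

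Sln, the sarcolipin gene, gave 63.8, 38.8, 16.2, 27.8, 15.8 and 12.1 CPM in the same order of high pieces. In the low class it was at 0.547 CPM in CKD 9178, 0.211 in CKD 9179, 0.0565 in control 9182 and at 0 counts in the other 5 pieces, which allows up to 0.160 CPM (3 counts, counting error only) in the shallowest of them, control 9184. Its log2 fold change of 8.33 ± 0.68 was the largest of the 11, and with so few counts in the low class its size depends on the model. Mybphl, a myosin-binding protein of atria and conduction tissue, ranged from 4.71 to 32.2 CPM (median 11.8) in the high class and from 0 to 0.448 CPM (median 0.103) in the low class, a log2 fold change of 6.60 ± 0.60. For these 3 genes the order within the low class also began with CKD 9178.

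The 9 secreted proteins on the atrial list were mixed, with a median log2 fold change of 0.45 over the 8 that passed the filter, and 0.71 without the scar-holding piece of control 9180. Hamp encodes hepcidin, the hormone that closes the iron exporter ferroportin and is known mainly from liver. It gave 5.78 CPM in CKD 9174, 3.73 in control 9170, 3.18 in CKD 9176, 1.95 in control 9171, 1.10 in CKD 9172 and 0.558 in CKD 9173, against 0 to 0.348 CPM in the low class (log2 fold change 5.09 ± 0.68). Hamp2, the close copy with which it could share reads, had at most 2 counts in any remote library.

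BMP10 and DKK3 are secreted proteins that serve as atrial markers beside the light chains, and the ranges of both genes overlapped between the classes. Bmp10 did not pass the filter: it stood at 0.504 CPM in CKD 9176 and 0.0558 in CKD 9173 and at 0 in the other 4 high pieces, and its highest low piece, control 9184, had 0.321 CPM. Of the 5 markers named for the atrial label, then, Myl7, Myl4 and Sln were high together, Bmp10 was near 0 in both classes and Dkk3 overlapped. Dkk3 ranged from 6.15 to 51.02 CPM in the high class and from 1.92 to 58.2 CPM in the low class, where the top value was that of the scar-holding piece of control 9180. Without that piece the low-class maximum of Dkk3 was 16.8 CPM, in control 9183, the low piece with the next highest scar sum. The log2 fold change of Dkk3 was then 2.36 ± 0.51, against 1.83 ± 0.65 with control 9180.

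Nppa, the gene of atrial natriuretic peptide, which stressed ventricle also makes, had overlapping ranges. Its values were 81.9 to 295 CPM (median 145) in the high class and 31.5 to 2036 CPM (median 81.7) in the low class, with the maximum in control 9180. The log2 fold change was 0.47 ± 0.86, and 1.19 ± 0.40 without that mouse. Nppb, the brain natriuretic peptide gene, ranged from 430 to 648 CPM in the high class and from 88.3 to 1250 CPM in the low class, and without control 9180 the low-class maximum was 408 CPM. So the class ranges of Nppb parted, by a narrow gap, only with control 9180 left out, and those of Nppa overlapped either way. The remaining list members Angpt1 (an endothelial growth factor), Clu (a chaperone), Pam (which amidates peptides and is abundant in atrial granules) and Corin (the protease that activates natriuretic peptides) had log2 fold changes of 0.19, -0.27, 0.43 and -0.08 and overlapping ranges. Clu was at 4569 CPM in control 9180 and at 481 to 1026 CPM in the other 7 low pieces, and without that mouse its log2 fold change was 0.10 ± 0.16.

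None of the 9 transcription factors of atria and sinus venosus was separated, and the median of the 7 that passed the filter was 0.17, and 0.07 without control 9180. Isl1, a factor of the sinus node, was at 0 in all 6 high pieces. Shox2, which acts in the sinus venosus, ranged from 0.288 to 2.27 CPM and from 0.226 to 1.31 CPM. Nr2f2, an atrial identity factor that veins and lymphatics also express, had a log2 fold change of -0.15 ± 0.13. Tbx5, active in atria and the conduction system, was at 0.38 ± 0.27, and Nr2f1, Tbx3, Tbx18 and Hey1 were at 0.27, 0.17, -0.46 and -0.22.

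The 11 channels and junction proteins had a median log2 fold change of 0.51, and 0.39 without control 9180. Cacna2d2, an auxiliary subunit of voltage-gated calcium channels, ranged from 4.23 to 29.3 CPM in the high class and from 0.863 to 4.08 CPM in the low class (2.89 ± 0.44). Its lowest high piece, CKD 9172 at 4.23 CPM, lay close to its highest low piece, CKD 9178 at 4.08 CPM. The main pacemaker channel Hcn4 overlapped, with 10.8 to 37.5 CPM against 4.18 to 15.3 CPM (1.03 ± 0.32), as did the T-type calcium channel Cacna1g, with 21.3 to 58.4 CPM against 16.5 to 29.6 CPM (0.91 ± 0.22). Cacna1d, the L-type channel of nodal cells, was at 0.77 ± 0.23. The acetylcholine-gated potassium channel subunits Kcnj3 and Kcnj5 were at -0.05 and 0.51, the potassium channels Kcna5 and Kcnk3 at -0.22 and 0.16, and the connexins Gja5 and Gjc1 at 0.13 and 0.05.

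The 5 other atrial and conduction markers all had log2 fold changes above 0 and all overlapped. Cntn2, a cell adhesion protein of Purkinje cells, ranged from 8.26 to 92.4 CPM in the high class and from 2.09 to 24.6 CPM in the low class (1.76 ± 0.54). Cpne5, a calcium-dependent lipid-binding protein, ranged from 1.56 to 15.4 CPM and from 0 to 2.29 CPM (3.29 ± 0.66). Vsnl1, a calcium sensor, ranged from 0.0480 CPM, a single count, to 1.47 CPM, and was at 0 in 7 of 8 low pieces (5.32 ± 0.86). Stard10, a lipid transfer protein, and Smoc2, a matrix protein, were at 0.68 and 0.08.

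The 4 separated genes outside the lists were low in both classes. Alox8, an arachidonate lipoxygenase, ranged from 0.669 to 4.15 CPM in the high class and from 0 to 0.199 CPM in the low class (5.05 ± 0.54). Tmem163, a zinc transporter, ranged from 1.62 to 6.44 CPM against 0 to 0.597 CPM (3.45 ± 0.51). Slc24a2, a potassium-dependent sodium-calcium exchanger, ranged from 1.34 to 3.25 CPM against 0.470 to 1.28 CPM (1.60 ± 0.27), the smallest fold change of the 4. Capn11, a calpain protease best known from testis, ranged from 0.336 to 2.64 CPM, where 0.336 CPM is 7 counts, against 0 to 0.282 CPM (4.27 ± 0.60).

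Ventricular and shared muscle genes differed little between the classes. None of 10 ventricular genes was separated, and their median log2 fold change was 0.03, and -0.05 without control 9180. Myl2, the ventricular regulatory light chain, ranged from 7089 to 14418 CPM in the high class and from 6871 to 13929 CPM in the low class (0.08 ± 0.21). Myl3, its essential light chain partner, was at 0.10 ± 0.16, the slow myosin Myh7 at 0.10, Pln at -0.02 and the ventricular transcription factors Irx4 and Hey2 at 0.16 and -0.26. The potassium channel genes Kcnd2, Kcnip2 and Kcnj2 were at -0.68, -0.14 and -0.05, and Fhl2, a sarcomere-associated protein, was at 0.18. None of 12 cardiomyocyte genes of both chambers was separated (median 0.08, and 0.05 without control 9180).

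**Figure D2:**
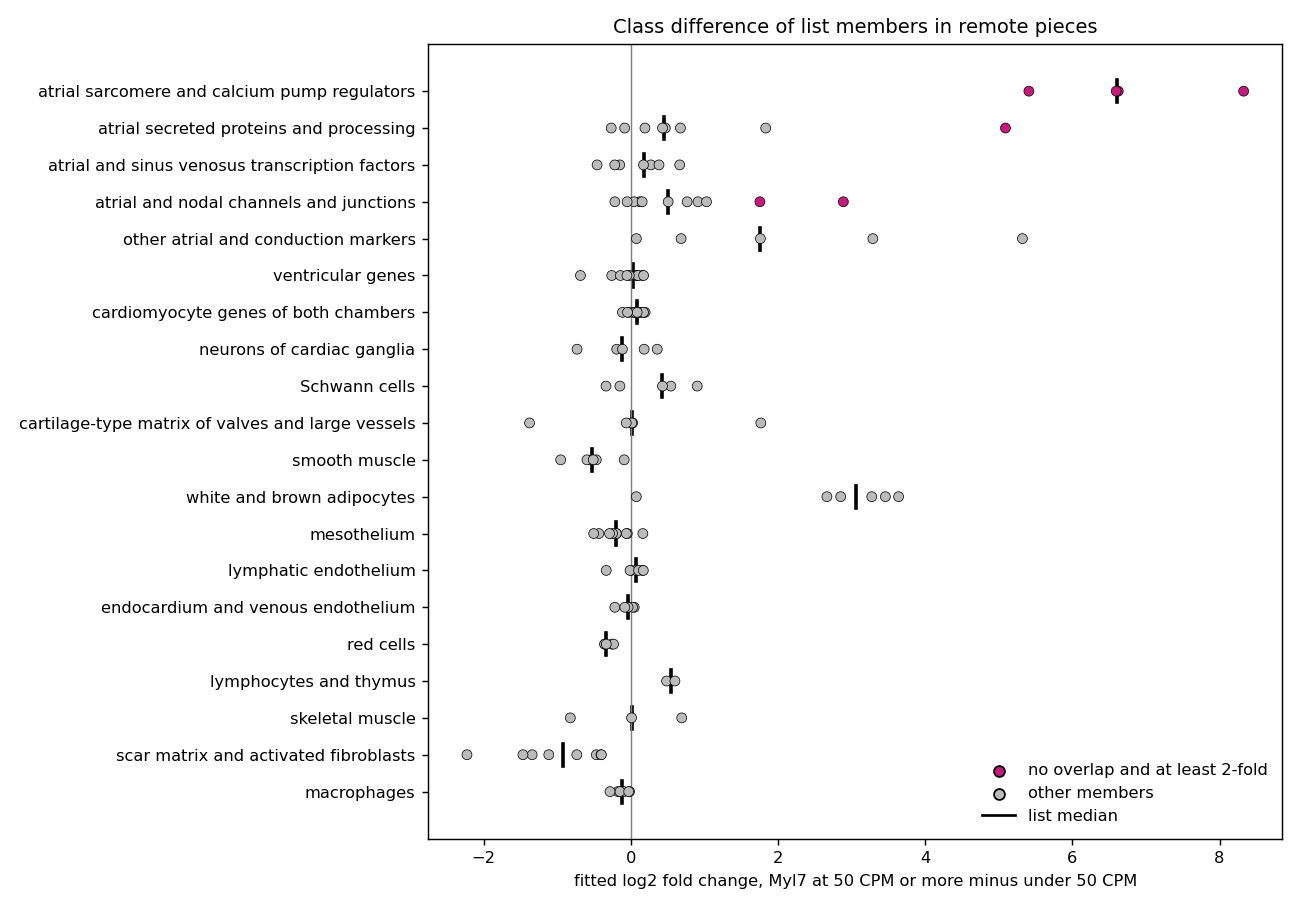
Fitted log2 fold change, high minus low class, of each list member that passed the filter, by list; magenta points did not overlap between the classes and were at least 2-fold apart, and black bars are list medians. The magenta points lie in 3 of the 5 atrial and nodal lists, and the ventricular and shared cardiomyocyte lists have medians of 0.03 and 0.08.

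Within the high class, Myl4, Sln, Mybphl and Tmem163 varied less relative to Myl7 than Myl7 itself varied, at 2.96-fold from the lowest to the highest piece. Per 100 Myl7 counts, the 6 pieces held 83.7 to 124 Myl4 counts, 11.5 to 20.5 Sln counts, 4.01 to 10.3 Mybphl counts and 1.21 to 2.07 Tmem163 counts. Wider ratios were those of Hamp, at 0.531 to 2.26 counts, Cacna2d2, at 3.60 to 12.01 counts, and Alox8, at 0.637 to 2.94 counts. The ratios compare libraries with each other, and counts are not scaled for transcript length.

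The genes whose log2(CPM + 0.5) had the highest Pearson r with Myl7 over the 14 pieces were Myl4 (0.99), Sln (0.98), Mybphl (0.97), Tmem163 (0.93), Alox8 (0.93), Hamp (0.92), Unc80 (0.90), Cacna2d2 (0.88), Gucy2e (0.88) and Frmpd1 (0.87). Since the pieces form separate clusters, these values mostly describe the gap between the classes. Over the 6 high pieces alone, r was 0.97 for Tmem163, 0.97 for Myl4, 0.96 for Sln, 0.92 for Mybphl, 0.91 for Hamp and 0.68 for Alox8. Over the 8 low pieces alone it was 0.93 for Sln, 0.91 for Mybphl, 0.81 for Myl4 and 0.44 for Tmem163. These low-class values depend largely on CKD 9178, with Myl7 at 9.30 CPM against 1.95 in the next piece. That piece also had the most Sln, Mybphl and Myl4 of the low class, and most low pieces had 0 counts of Sln. Unc80, a subunit of a sodium leak channel complex, Gucy2e, a membrane guanylate cyclase, and Frmpd1, a scaffold protein, reached at most 1.51, 0.969 and 1.33 CPM in any remote piece. Each r is a description of pieces that share the rule gene.

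The high class was not uniform. In mice 9174, 9170, 9176 and 9171, Cpne5 stood at 15.4, 7.99, 8.57 and 7.31 CPM, against 1.92 in CKD 9172 and 1.56 in CKD 9173, which lie within the low-class range. Cntn2 stood at 92.4, 27.04, 55.4 and 31.2 CPM in the same 4 pieces, against 13.9 and 8.26 in those of 9172 and 9173. Hcn4 followed with 32.3, 19.05, 37.5 and 27.1 CPM against 10.8 and 13.7. So the conduction-associated transcripts were high in 4 of the 6 pieces, while Myl7, Myl4 and Sln were high in all 6. These 4 pieces were singled out after their values were seen.

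Fat cell transcripts marked the same 4 pieces. Adipoq, the gene of the adipocyte hormone adiponectin, was at 2.09, 2.25, 3.26 and 1.67 CPM in 9174, 9170, 9176 and 9171, at 0.0960 in 9172 and 0.446 in 9173, and at 0 to 0.300 CPM in the low class. Cfd, the adipocyte protease adipsin, was at 10.4, 10.8, 15.5 and 7.24 CPM, at 0.672 and 1.78 in the other high pieces, and at 0.0639 to 3.11 CPM in the low class. Of 10 adipocyte list genes, 6 passed the filter, none was separated, and the median log2 fold change was 3.06. The list's summed level ran from 47.0 to 85.4 CPM in the high and from 45.1 to 54.5 CPM in the low class, most of it from Cidea, which overlapped (0.08). Lep, the leptin gene, was at 0 in all 8 low pieces and at no more than 0.191 CPM in the high ones, and the brown fat gene Ucp1 reached 0.182 CPM. The part of fat tissue in the differences above was not tested.

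**Figure D3:**
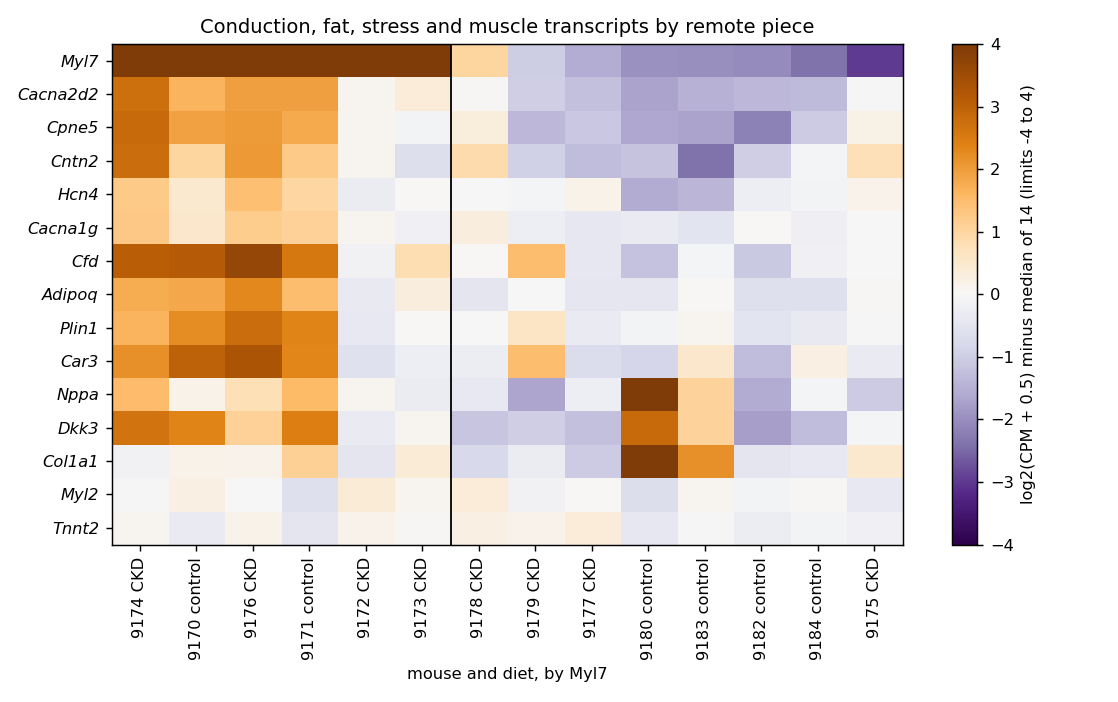
Level of 15 transcripts in each remote piece as log2(CPM + 0.5) minus that gene's median over the 14 pieces, with colours limited to -4 to 4 and pieces ordered by Myl7; the black line is the class border. Conduction and fat transcripts are raised in the first 4 columns (9174, 9170, 9176 and 9171) and Nppa, Dkk3 and Col1a1 in the column of control 9180, while Myl2 and Tnnt2 vary little.

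No marker gene of the other cells in or near the atria was separated between the classes, and several list values rested on control 9180. Of 13 genes of cardiac ganglion neurons, 5 passed the filter with a median of -0.11, and 0.23 without control 9180, and Chat and Snap25 were at 0 in all 14 pieces. Their summed level ran from 30.7 to 40.6 CPM in the high and from 18.99 to 94.05 CPM in the low class, where the maximum without control 9180 was 40.9 CPM. Of 7 genes of cartilage-type matrix, found in valves and large vessels, 5 passed the filter, with a median of 0.01, and 1.18 without control 9180. Their summed level was 66.3 and 48.1 CPM in the high pieces of controls 9170 and 9171 and 11.3 to 22.6 CPM in the other 4 high pieces. Among low pieces it was 292 CPM in control 9180 and at most 25.5 CPM in the other 7, so the 3 highest sums were all in control mice. Comp and Fmod, a pair of matrix proteins, gave most of it, with 28.9 and 21.9 CPM in control 9170 and 132 and 119 CPM in control 9180. In infarct tissue the summed level of this list reached 1157 CPM, in control 9171, and was 19.4 CPM in CKD 9179, whose scar transcripts were low. The part of valve, vessel or scar tissue in these sums and in the class differences was not tested. Schwann cell genes had a median of 0.43 (5 of 5 past the filter), mesothelial genes -0.20 (9 of 9), endocardial and venous genes -0.04 (5 of 5, and 0.07 without control 9180), smooth muscle genes -0.52 (6 of 6) and red cell genes -0.33 (5 of 5). Lung and airway genes, which would mark tissue from outside the heart, did not pass the filter in any of 5 cases and summed to at most 0.674 CPM. The scar matrix list had a median of -0.92, and -0.26 without control 9180.

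Of 14195 genes, 15 were higher and 8 lower in the high class with ranges that did not overlap, whatever the fold. How many genes another split of the same pieces would separate was not tested, so these small counts are only described. The 8 lower genes were all less than 2-fold apart. The largest difference among them was that of Pde7a, a cAMP phosphodiesterase, at 16.3 to 23.4 CPM against 25.7 to 42.03 CPM (log2 fold change -0.67 ± 0.15). Pgm2l1, a sugar phosphate enzyme, had -0.53 ± 0.14, Impact, a translation regulator, -0.40 ± 0.09 and the RNA helicase Ddx5 -0.21 ± 0.08. Zbtb11, Ahctf1, Morc3 and Ltn1 lay between -0.46 and -0.20.

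Diet was a label that the split did not use. Of 8 CKD pieces 4 were in the high class, and of 6 control pieces 2, an odds ratio of 2 (two-sided Fisher exact p = 0.627). With mouse 9179 read as control, the odds ratio was 3.33 (Fisher exact p = 0.592). With so few pieces a difference in share would have to be large to be seen.

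With the class as a term in the fit, CKD against control called 1 of 14195 genes (0.00704%) at an edgeR quasi-likelihood adjusted p under 0.05, and 1542 genes had an unadjusted p under 0.05. The called gene, Angptl7, a secreted angiopoietin-like protein, was lower in CKD (log2 fold change -1.54 ± 0.20, adjusted p = 0.0260). Its remote values were 8.90, 6.34, 9.42, 5.20, 7.70 and 3.21 CPM in controls 9170, 9171, 9180, 9182, 9183 and 9184, and 1.68 to 3.07 CPM in the 8 CKD pieces, so the diets did not overlap. Across the alternatives its adjusted p ran from 3.32e-08 (DESeq2) to 0.822 (low class alone), and with 9179 read as control it was 0.299. Leaving out 1 library at a time, the edgeR call held without CKD 9174 (adjusted p = 0.0263), control 9182 (0.0345) or control 9184 (0.00181) and was lost without any of the other 11, at 0.0504 without CKD 9179, 0.0545 without control 9180 and up to 0.136 without control 9170. DESeq2 called 71 genes, 29 higher and 42 lower.

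Without the class term, the fit called 3 of 13902 genes: Angptl7 (adjusted p = 0.0128), Cd83, a marker of activated antigen-presenting cells (-0.99, adjusted p = 0.0429), and Aqp8, a water channel (-1.38, adjusted p = 0.0485). With the class term the last pair had edgeR adjusted p = 0.0619 each and log2 fold changes of -0.99 and -1.45. Their class differences were 0.02 ± 0.16 for Cd83 and 0.27 ± 0.22 for Aqp8. No atrial gene was called by diet. For Myl7 itself the diet difference with the class term was 0.91 ± 0.62, for Sln 0.07 ± 0.60 and for Myl4 0.24 ± 0.42. Within the high class and within the low class edgeR called 0 genes each, with 1417 and 691 genes at an unadjusted p under 0.05, and DESeq2 was not run there.

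The infarct libraries of the same hearts were not used by the split. Of the 13, 5 came from hearts with a high-class and 8 from hearts with a low-class remote piece, since high-class mouse 9173 gave none. Between them edgeR called 0 of 14697 genes (0%), with 164 at an unadjusted p under 0.05, and DESeq2 called 1. The atrial transcripts did not follow the heart. In the infarct tissue of the 5 high-class hearts Myl7 was at 0.203 to 1.34 CPM, Myl4 at 4.30 to 7.05 CPM and Sln at 0 to 0.116 CPM. In 7 of the 8 low-class hearts, Myl7 was at 0.430 to 3.003 CPM.

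The exception was the infarct library of CKD 9179, whose remote piece was in the low class. It held Myl7 at 171 CPM, Myl4 at 243 CPM, Sln at 37.2 CPM, Mybphl at 11.5 CPM and Hamp at 2.39 CPM. Of the 11 separated genes, 9 were higher there than in the 12 other infarct libraries. The share of all genes that were highest in this library was not counted, so the 9 of 11 is only described. Per 100 Myl7 counts it had 142 Myl4, 21.7 Sln, 6.72 Mybphl, 1.39 Hamp and 1.43 Tmem163 counts. Of these, Mybphl, Hamp and Tmem163 lay within the range of the 6 high remote pieces, and Myl4 and Sln lay above it. The same library had Col1a1 at 63.9 CPM against 1494 to 27971 CPM in the other infarct libraries, and Myl2 at 14913 CPM against 244 to 9893 CPM, so its scar and muscle transcripts went against the infarct label. The remote library of the same mouse had Col1a1 at 172 CPM, within the 103 to 954 CPM of the low pieces other than control 9180.

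Capn11 showed another pattern. In the infarct tissue of high-class hearts it stood at 0.636 CPM in CKD 9174, 1.88 in control 9170, 2.91 in CKD 9176, 1.58 in control 9171 and 0.742 in CKD 9172, against 0 to 0.276 CPM in the 8 low-class hearts. It was the single gene with no overlap and at least 2-fold between the groups there, of 14697 (0.0068%). Its log2 fold change was 4.14 ± 0.59, with an edgeR adjusted p = 0.154 and a DESeq2 adjusted p = 4.27e-06. Capn11 passed the filter on low counts only through the high-class hearts, and such a gene had to differ, so these p-values are no independent support. With no filter the edgeR adjusted p was 0.134. The infarct library with the most Capn11, CKD 9176, also held lung and airway genes at a sum of 211 CPM. The edgeR adjusted p ran from 0.0942 to 0.749 as single libraries were left out. In the infarct library of CKD 9179, where Myl7 was high, Capn11 was at 0.0701 CPM. Capn11 was thus high in both pieces of the same 5 hearts. In CKD 9175, whose number lies among theirs, it was at 0.0749 CPM in the remote and 0.0454 CPM in the infarct piece.

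**Figure D4:**
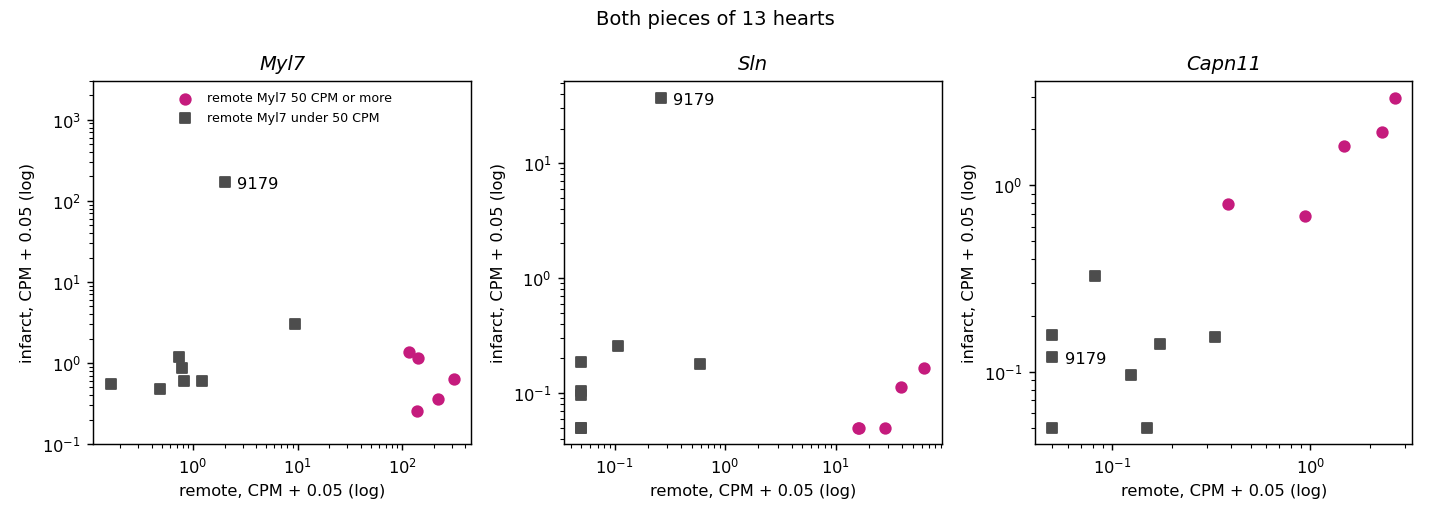
CPM in the infarct library against CPM in the remote library of the 13 hearts with both, on log axes with 0.05 CPM added; magenta circles are hearts with a high-class and dark squares hearts with a low-class remote piece, and some points at 0 overlap. Myl7 and Sln are low in the infarct tissue of every high-class heart and high in that of mouse 9179, whereas Capn11 is high in both pieces of the 5 high-class hearts.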

How the data were processed

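Bulk RNA-seq was measured in 27 libraries, and the authors' deposited table gives whole-number counts per gene for 27304 genes. The tool kallisto 0.48.0 and genome build GRCm39 are named, per the submitters' processing notes. How transcript estimates became gene counts, and whether strand was used, is not given in the sources used here. Groups came from the sample titles, which name a separate mouse for each remote piece. The members and lists were chosen with earlier results of these data known.

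Remote libraries were classed by CPM of Myl7 on total counts. Genes were filtered with filterByExpr, scaled by TMM and fitted with edgeR 4.0.16 (R 4.3.3) on diet and class. Class differences are log2 fold changes with SE and no test. Diet, and infarct tissue by class, were tested with the edgeR quasi-likelihood F test and Benjamini-Hochberg adjustment at 0.05, and diet against class with Fisher's exact test. The fits were tested on simulated data. Alternatives were DESeq2 1.42.0, other scalings, filters and Myl7 thresholds, a continuous Myl7 term, fits without the diet or class term, and omission of single libraries.

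The text names all atrial, nodal and ventricular list genes, separated members of other lists, up to 10 other non-overlapping genes averaging 1 CPM or more per direction, the 10 genes most like Myl7, and called genes, except that some are not reported here. The fat genes, Capn11, Col1a1, Apoe and the clock genes were named after their values were seen. Of the 160 genes in 21 lists all were found, 1 by gene ID. Date-like symbols (27) were restored by ID. Promoter windows came from RefSeq, whose build differs from that of the counts, and 9 of 11 separated genes had an entry.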

Additional observations from a re-analysis of the deposited data

Results flagged for a closer look

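In 13 of 48 groups of 4 to 10 samples, the highest or lowest sample lay far from the rest relative to the group's range (Dixon's 95% critical value), a rule that chance meets in a small share of groups. Most involved the infarct library of CKD mouse 9179, against the 6 other CKD infarct libraries. There Myl7 was 171 CPM, Myl4 243, Sln 37.2, Mybphl 11.5, Cacna2d2 7.997, Tmem163 2.46, Hamp 2.39, Alox8 0.912 and Bmp10 0.772 CPM. These 9 values belong to 1 library and are not independent of each other.

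In the high class of remote pieces, CKD 9176 stood apart with Bmp10 at 0.504 CPM. In the low class, CKD 9178 stood apart with Hamp at 0.348 CPM, and control 9184 with Bmp10 at 0.321 CPM. In control infarct tissue, Sln stood at 0.207 CPM in mouse 9182.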

How the results depend on the processing

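The count of 11 separated genes became 10 to 14 under other scalings, filters, thresholds, DESeq2, no diet term, Myl7 as a continuous term, 9179 read as control, and without 9179, 9180 or both (the last chosen after seeing the data). All 11 genes remained, except that 10 remained with the filter at a mean of 1 CPM and with no diet term. Leaving out single libraries gave 11 to 20. The count was 20 without CKD 9172, adding genes such as Adipoq, Gucy2e and Vsnl1, and 18 without CKD 9173, adding genes such as Lmntd1, Nfasc and Unc80. Of 1316 values of 49 genes under alternatives, 1310 moved by less than 1 SD and 6 by more. A change of sign was recorded only for the 11 separated genes, of which 0 reversed. Among the other genes, Clu moved from below to above 0 without control 9180. The other Myl7 thresholds left the classes unchanged, and the omission of 9179 or of 9180 was entered more than once. Such settings add no separate check.

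The diet count of 1 with the class term became 71 with DESeq2, 5 with Myl7 as a continuous term, 3 without the class term, and 0 without mouse 9179, without mouse 9180, and within the high or the low class. Single libraries left out gave 0 to 2: 2 without CKD 9174, control 9182 or control 9184, and 0 without any of the others. With 9179 read as control, the 1 gene called was Bcl6 (edgeR log2 fold change -1.04, adjusted p = 0.0253) in place of Angptl7. The infarct count of 0 became 1 with DESeq2 and stayed 0 under every other setting run, single libraries left out included (0 to 0). Reading 9179 as control was not run for infarct tissue, whose library is labelled CKD. The odds ratio of 2 became 3.33 with 9179 read as control. No paired analysis was possible because the groups compared, diets or classes within a region, share no mouse. The infarct and remote pieces of the 13 mice with both were not tested against each other. The cause of these changes was not tested. Levels under 1 CPM rest on few counts.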

Other observations

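Clock transcripts differed between hearts of the high class. Arntl, the core activator of the circadian clock, was at 21.6 and 23.5 CPM in the remote pieces of controls 9170 and 9171 and at 5.58 to 11.4 CPM in the 4 CKD pieces of the class. In the low class it was at 18.3 CPM in control 9180 and at 1.19 to 5.77 CPM in the other 7. Dbp, a clock output factor, ran the other way, at 13.6 and 15.2 CPM in 9170 and 9171 and 34.1 in 9180, against 49.5 to 114 CPM in the other 11 pieces. The infarct tissue of 9170 and 9171 also had the highest Arntl (36.7 and 39.8 CPM) and the lowest Dbp (10.52 and 8.48 CPM) of the 13 infarct libraries. The labels used here give no time of day.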
